A study of Mus musculus with 6 samples.

Results

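Oxidative phosphorylation genes were followed in RNA from dorsal root ganglia of CD-1 mouse embryos, taken at embryonic day 13. The cells had been given a lentivirus, either with a hairpin against Uhrf1 (shUHRF1, 3 libraries) or with a control hairpin (shControl, 3 libraries), and both groups therefore carried a virus. The series' design text calls the cells uninjured neurons and states the question as the effect of the Uhrf1 knockdown on transcription. Ribosomal RNA was depleted before cDNA synthesis, and the labels do not say whether libraries came from separate cultures, so p-values measure the spread between libraries, which may be technical. Members were all protein-coding genes whose symbols match the naming patterns of respiratory chain and ATP synthase genes: Nduf, Sdha to Sdhd, Uqcr, Cyc1, Cox followed by a digit, Atp5 and mt-. These were 116 of the 47643 genes in the files: 83 nuclear subunits, 13 subunits encoded by mitochondrial DNA, and 20 assembly factors or related genes that carry the same name stems. The patterns leave out the electron carriers and most assembly factors, which are described at the end.

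Oxidative phosphorylation is the set of reactions by which mitochondria make ATP. Complexes I and II pass electrons from NADH and succinate to coenzyme Q, complex III passes them to cytochrome c, and complex IV passes them to oxygen. The proton gradient that complexes I, III and IV build drives ATP synthase, also called complex V. Complex II is encoded by nuclear genes alone, whereas the other complexes combine nuclear subunits with subunits made inside the organelle, and neurons draw most of their ATP from this pathway.

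The libraries held 15599776 to 22382813 reads in genes. Levels are given as CPM, counts scaled to a common library size, and those of 18 neuronal markers summed to 22650 to 28510 in shUHRF1 and 27070 to 32250 in shControl. Markers of other cell types were also present. The 13 fibroblast markers summed to 90.66 to 210.7 CPM in shUHRF1 and 9.64 to 12.05 CPM in shControl. Of these, 10 of 10 tested were called higher, where 11.6% of all genes were called higher and 12.4% lower. Fbln1, Twist1 and Prrx1 had too few reads to be tested, with Fbln1 at 0.4811 CPM in shUHRF1 and 0.4666 CPM in shControl. Some markers passed the low-count filter only through shUHRF1, such as Fap at 1.351 CPM there and 0.0706 CPM in shControl. Such a count therefore leans towards genes called higher. Of 13 tested glial markers 9 were called higher and 1 lower, with sums of 206.8 to 708 CPM in shUHRF1 and 559.6 to 652.6 CPM in shControl. The median log2 fold change over these 13 was 2.83, so the sum does not follow the typical glial marker. Of 8 tested macrophage markers 5 were called higher and 0 lower, with sums of 17.56 to 46.75 CPM in shUHRF1 and 6.344 to 12.78 CPM in shControl. None of these markers was at 0 in all shControl or all shUHRF1 libraries. A change in the number of cells of a type and a change in RNA per cell cannot be told apart in such bulk RNA. The part of these markers in the results on oxidative phosphorylation was not tested. Uhrf1 itself was near the detection limit, with 2, 1 and 5 reads in shUHRF1 and 8, 6 and 5 reads in shControl (log2 fold change -1.39 ± 0.62 (SE), edgeR adjusted p = 0.141). The libraries therefore give the knockdown only with a wide error.

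Most oxidative phosphorylation genes differed little between the groups. Of the 116 genes, 104 had enough reads to be tested, and 11 of these (10.6%) were called at an edgeR adjusted p below 0.05, against 24% of all 15573 genes tested. The 2 called higher in shUHRF1 were Cox7a1 and Atp5b, where 11.6% of all genes were called higher. The 9 called lower were Cox14, Atp5d, Uqcr10, Ndufs8, Sdhb, Uqcrfs1, Cox18, Ndufa3 and Sdhd, where 12.4% of all genes were called lower. The median log2 fold change was 0.03 over the 104 genes and 0.02 over all genes tested. The median size of the log2 fold change, whatever its sign, was 0.20 over these genes and 0.35 over all genes. Since these genes are more abundant than most, the same was computed at a mean of 16 CPM or more, where it was 0.18 over 87 members and 0.29 over all 7964 genes of that level, with 10.3% and 29.2% called. At that level 9.29% of all genes were called higher and 19.9% lower. The log2 fold change was smaller than 0.5 in either direction for 88.5% of the members and for 62.9% of all genes. With the replicate number as a block, 6 members were called higher and 11 lower, where 31% of all genes were called, 15.3% higher and 15.7% lower. The genes gained included Sdha, mt-Nd2 and mt-Cytb among the higher and Ndufa8 and Ndufa11 among the lower. With upper-quartile factors, which move the median of all genes to 0.14 on the log2 scale, 9 were called higher and 7 lower, where 16.1% of all genes were called higher and 8.85% lower.

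**Figure D1:**
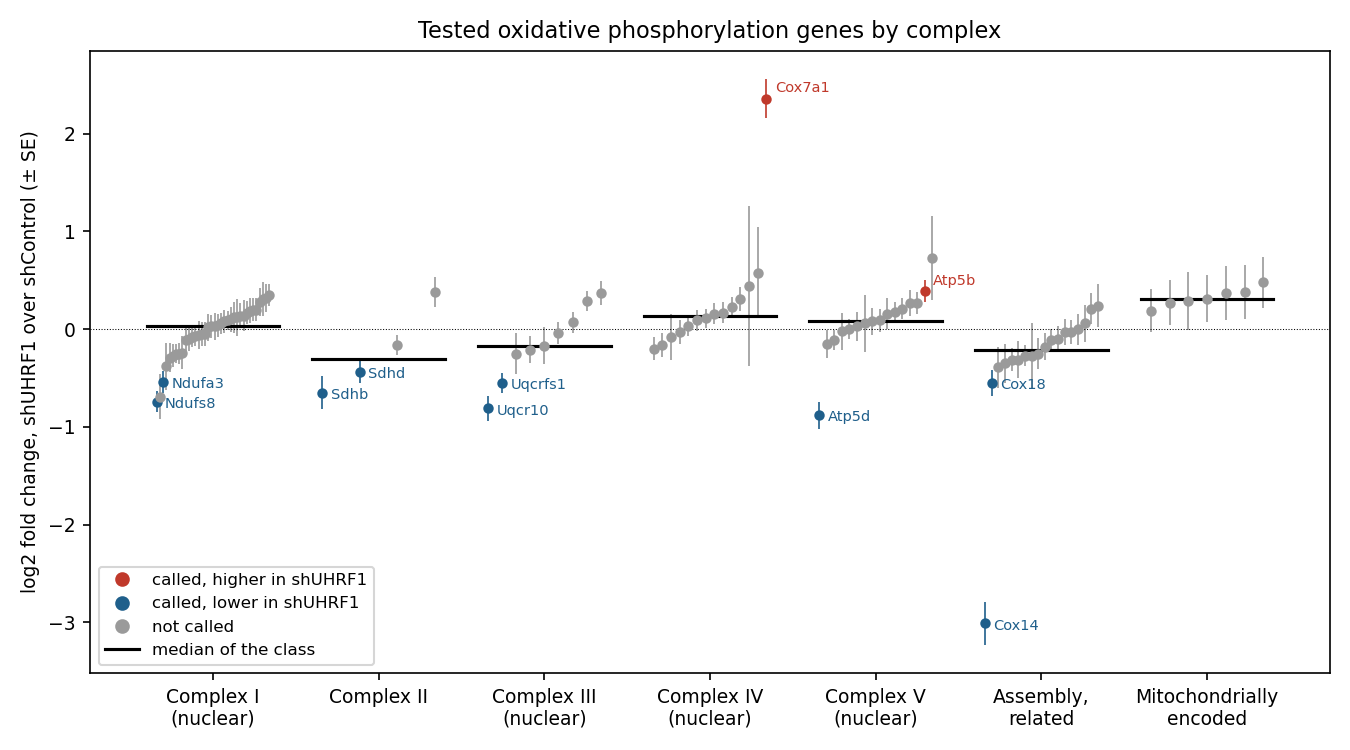
Log2 fold change, shUHRF1 over shControl, with its standard error, for each of the 104 tested genes, sorted within 7 classes. Black bars are class medians, and coloured points are the 11 called genes. Cox7a1 at 2.36 and Cox14 at -3.01 stand outside the range of -0.88 to 0.73 that holds all other genes.

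Among mitochondrially encoded subunits, 7 of the 13 genes had enough reads to be tested, and the other 6 form 1 uninterrupted run along the mitochondrial genome. This run, mt-Co2, mt-Atp8, mt-Atp6, mt-Co3, mt-Nd3 and mt-Nd4l, was listed at 0 in every library, apart from 1 read of mt-Co3 in the shUHRF1 library numbered 3. These genes encode a copper-binding core subunit of complex IV, another of its core subunits, the proton channel subunit of ATP synthase and its small partner, and a pair of membrane subunits of complex I. The mouse genome holds a nuclear copy of this stretch on chromosome 1. In GRCm38, 5 of the 6 genes had an annotated copy there that was identical over 98.28% to 99.87% of the gene, and mt-Atp8 had none annotated. The first 60 bases of mt-Co2 (GRCm38, plus strand, chrM:7013-7072) and of its copy Gm28661 (minus strand, chr1:24615506-24615565) are printed because they show that such reads match both places equally.
mt-Co2: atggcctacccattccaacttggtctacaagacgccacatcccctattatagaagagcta
Gm28661: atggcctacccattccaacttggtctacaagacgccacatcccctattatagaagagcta
The copy of mt-Co1, Gm29216, covers 31.26% of that gene and differs from it at 1 aligned base, A1066T, counted from the first base of mt-Co1. That base is in capitals in the next pair, from chrM:6390-6449 (plus strand) and chr1:24616129-24616188 (minus strand).
mt-Co1: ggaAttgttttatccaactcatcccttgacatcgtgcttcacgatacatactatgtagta
Gm29216: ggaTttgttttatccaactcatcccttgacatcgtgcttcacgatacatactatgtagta

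Apart from mt-Atp8, the genes without reads were those with an annotated copy of almost the whole gene. The gene mt-Atp8 lies between mt-Co2 and mt-Atp6, whose copies are at chr1:24614885-24615565 and chr1:24613974-24614651. The bases between these copies were not compared with mt-Atp8, so its lack of shared words holds for annotated genes only. Of the 50-base words in each transcript, 0% were found in any other annotated gene for mt-Nd1, mt-Nd6, mt-Cytb and also mt-Atp8. The share was 7.61% for mt-Nd5 and 8.19% for mt-Nd2, 51.14% for mt-Co1 and 62.23% for mt-Nd4. For mt-Co1 it came from 3 genes, and Gm29216 alone held 28.74% of its words. Reads that did not align uniquely made up 30.5% to 37.28% of the entries in the files and are not assigned to genes. Whether reads of the 6 untested genes are among them was not tested. The nuclear copies themselves were listed with 0 to 10 reads per library, except Gm28438, the copy of mt-Nd3. That copy had 295, 97 and 117 reads in shUHRF1 and 89, 52 and 50 reads in shControl, with a log2 fold change of 1.18 ± 0.42 (SE) that did not pass (edgeR adjusted p = 0.0766). Levels of mt-Co1 and mt-Nd4 may leave out reads of their copied parts, and mt-Co1 is the one complex IV gene of the mitochondrial genome with a level here, while complex V has none.

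**Figure D2:**
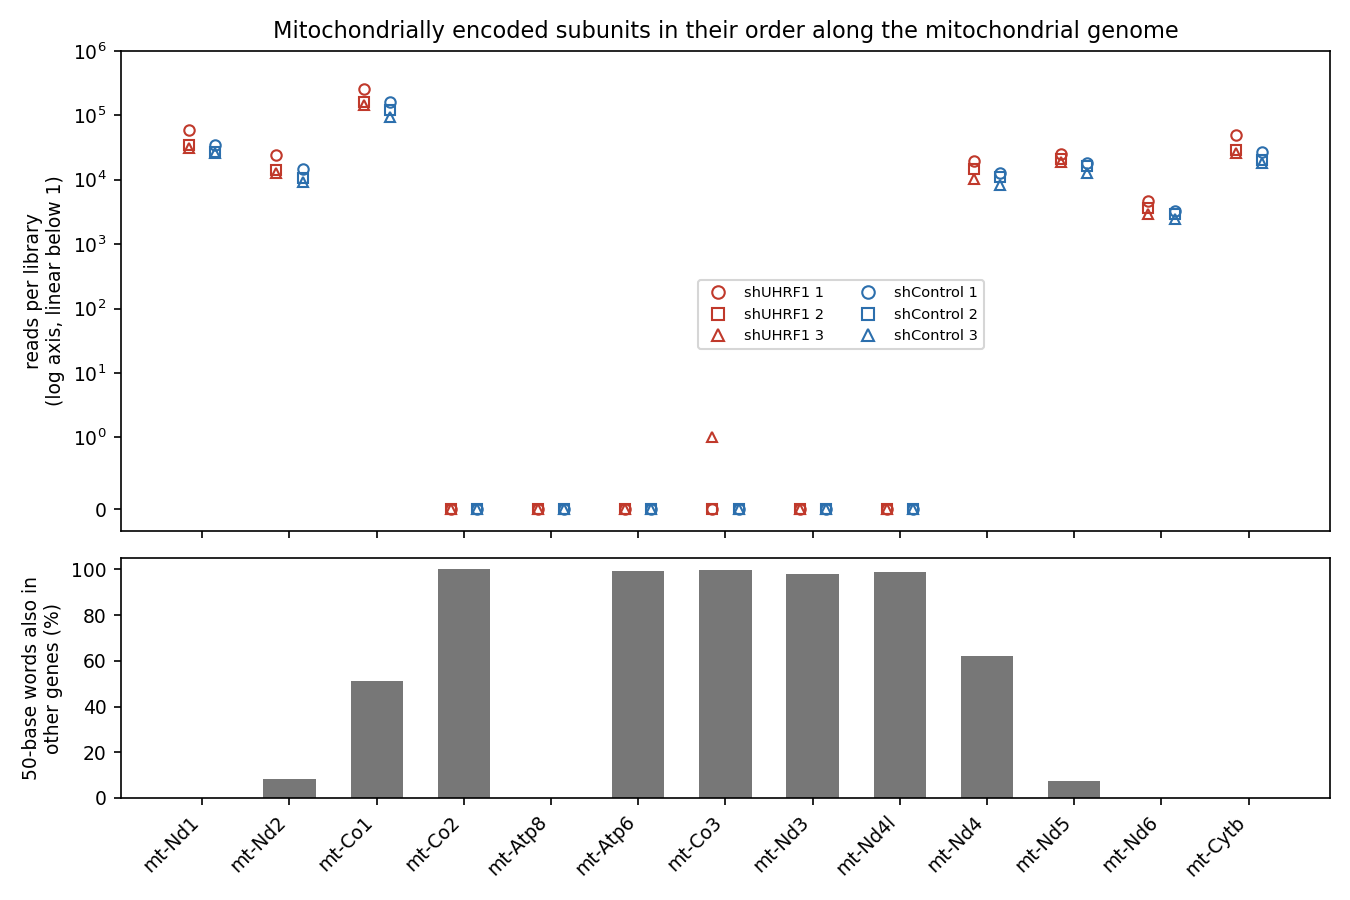
Reads per library of the 13 mitochondrially encoded subunits (upper panel, log axis that is linear below 1) and the percentage of 50-base words of each transcript that also occur in other annotated genes (lower panel). Genes are in their order along the mitochondrial genome, and the 6 genes from mt-Co2 to mt-Nd4l are at 0 apart from 1 read of mt-Co3.

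The most abundant member was mt-Co1, which encodes the catalytic subunit of complex IV. It had 11360, 9567 and 7013 CPM in shUHRF1 and 9212, 7783 and 4534 CPM in shControl. The groups overlapped, but each shUHRF1 library lay above the shControl library of its number. The same order held for mt-Cytb, which encodes the cytochrome b of complex III. Its levels were 2239, 1703 and 1267 CPM in shUHRF1 and 1542, 1307 and 875.1 CPM in shControl. For mt-Nd2, a membrane subunit of complex I, they were 1087, 841.8 and 610.5 CPM in shUHRF1 and 841.3, 690.4 and 435.6 CPM in shControl. The order within numbers held for mt-Nd1, mt-Nd4, mt-Nd5 and mt-Nd6 too. How often it holds over all genes was not counted.

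None of the 7 passed in the fit without a block: 0 of 7 were called by edgeR, DESeq2 or limma-voom, and 0 had an unadjusted p below 0.05 in edgeR. Their log2 fold changes were 0.48 ± 0.26 for mt-Cytb, 0.38 ± 0.28 for mt-Co1, 0.37 ± 0.28 for mt-Nd2, 0.31 ± 0.24 for mt-Nd1, 0.29 ± 0.30 for mt-Nd4, 0.27 ± 0.23 for mt-Nd5 and 0.19 ± 0.22 for mt-Nd6 (SE), with edgeR adjusted p-values of 0.213 to 0.591. With the replicate number as a block, mt-Cytb (edgeR adjusted p = 0.0216) and mt-Nd2 (edgeR adjusted p = 0.0424) were called higher, where 15.3% of all genes were called higher. An offset for GC content and length turned mt-Nd6 to -0.15, and without shControl replicate 3 it was -0.01. With that offset and the block together, mt-Nd4 was at -0.0038. The mitochondrial ribosomal RNAs, which remain after depletion, were also not called, with log2 fold changes of 0.59 ± 0.44 for mt-Rnr2 and 0.43 ± 0.28 for mt-Rnr1 (SE, edgeR adjusted p = 0.375 and 0.305).

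Summed over genes, mitochondrially encoded subunits gave 19530, 16460 and 11940 CPM in shUHRF1 and 15580, 13440 and 8202 CPM in shControl. These sums rest on the 7 tested genes, and mt-Co1 gave the largest part. It had 11360 of 19530 CPM in the shUHRF1 library numbered 1 and 4534 of 8202 CPM in the shControl library numbered 3. No sum without mt-Co1 was made. The ratio of the sum in shUHRF1 to that in shControl was 1.25, 1.22 and 1.46 within the numbers 1, 2 and 3. The spread between numbers was larger, so the groups overlapped. Nuclear subunits summed to 13930, 12850 and 14230 CPM in shUHRF1 and 12700, 12820 and 13190 CPM in shControl, with ratios of 1.1, 1 and 1.08 within the numbers. The mitochondrial sum divided by the nuclear sum was 1.40, 1.28 and 0.839 in shUHRF1 and 1.23, 1.05 and 0.622 in shControl. It was higher in shUHRF1 within each number and overlapped between the groups. Among the complexes, the summed nuclear subunits of complex V did not overlap, at 6307, 6045 and 6555 CPM in shUHRF1 and 5437, 5548 and 5687 CPM in shControl. Atp5b carried most of this difference: without it the sums were 3396, 3325 and 3803 CPM in shUHRF1 and 3283, 3443 and 3568 CPM in shControl, which overlapped. Assembly factors and related genes did not overlap in the other direction, at 429.5, 388.7 and 430.5 CPM in shUHRF1 and 487.1, 477.4 and 473.8 CPM in shControl. Without Cox14 they were 426.8, 385.5 and 427.7 CPM in shUHRF1 and 460.9, 460 and 447.5 CPM in shControl, still without overlap. The sums of complexes I, II, III and IV overlapped.

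**Figure D3:**
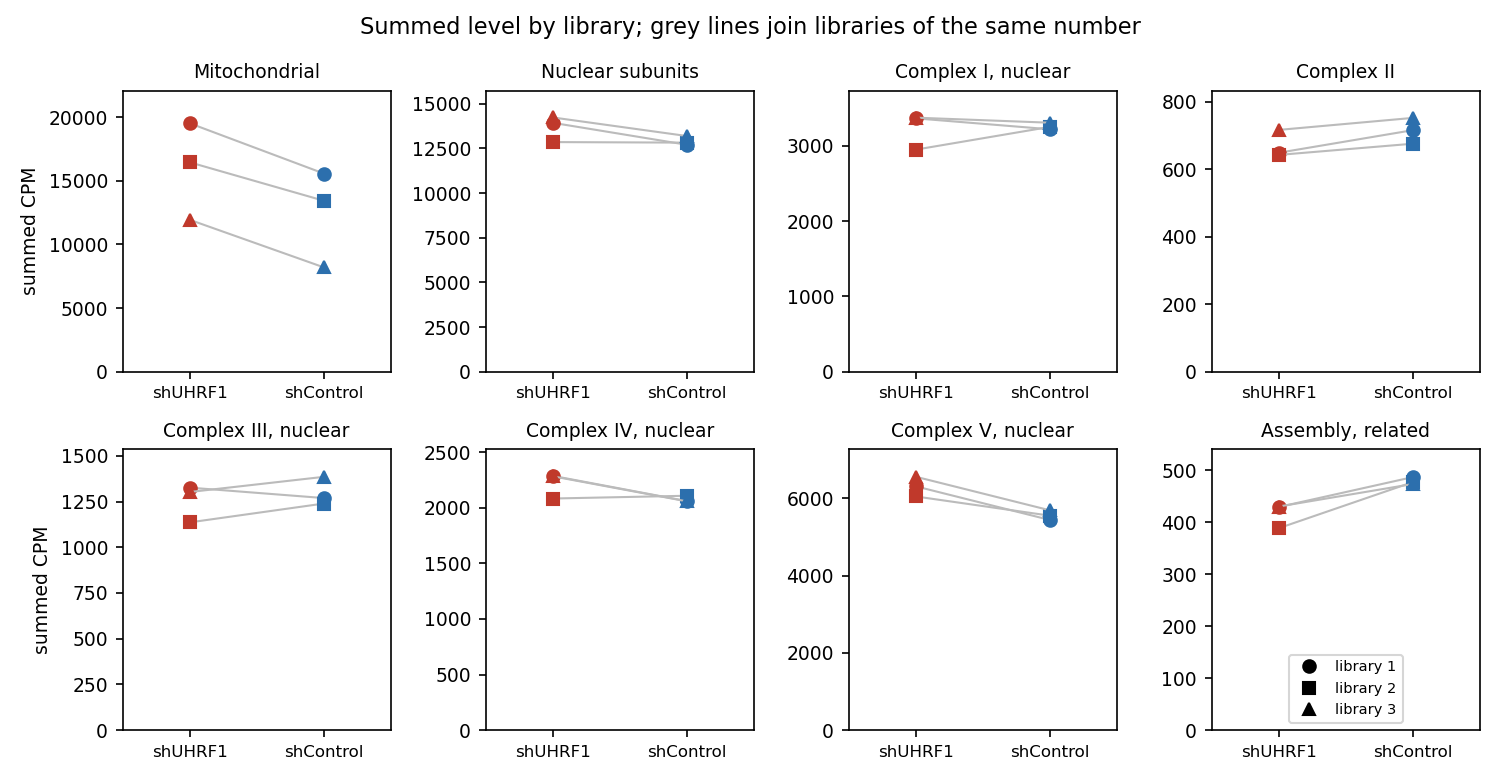
Summed CPM of mitochondrially encoded subunits, of all nuclear subunits, of the nuclear subunits of each complex and of assembly factors and related genes, by library, with grey lines joining libraries of the same number. The mitochondrial sum, which rests on 7 tested genes and mostly on mt-Co1, is higher in shUHRF1 within each number. The complex V and assembly sums do not overlap between the groups, though complex V overlaps without Atp5b.

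Complex I, the NADH dehydrogenase, had 36 tested nuclear subunits. Of these 0 were called higher and 2 lower, with a median log2 fold change of 0.03. Over all genes tested 11.6% were called higher and 12.4% lower, and at 16 CPM or more 9.29% higher and 19.9% lower. With the replicate block 1 complex I subunit was called higher and 4 lower, where 15.3% of all genes were called higher and 15.7% lower. The subunits called lower then included Ndufa8 (edgeR adjusted p = 0.00708) and Ndufa11 (edgeR adjusted p = 0.043). Ndufs8 (ENSMUSG00000059734.6, chromosome 19), a core subunit that holds iron-sulfur clusters on the path of electrons to coenzyme Q, had 59.99, 65.54 and 67.18 CPM in shUHRF1 and 113.8, 106.2 and 102.2 CPM in shControl. All shUHRF1 libraries were below all shControl libraries. Ndufs8 fell by 0.74 on the log2 scale (SE 0.11, edgeR adjusted p = 0.00306). Ndufa3, a small accessory subunit of the membrane arm, had 41.99, 50.52 and 44.08 CPM in shUHRF1 and 66.67, 64.61 and 67.01 CPM in shControl. The groups did not overlap, and Ndufa3 fell by 0.54 on the log2 scale (SE 0.11, edgeR adjusted p = 0.0124). Its call was lost without shUHRF1 replicate 3 (adjusted p = 0.0535) or shControl replicate 3 (adjusted p = 0.0527). The most abundant accessory subunit per kilobase, Ndufa1, had a log2 fold change of 0.28 ± 0.14 (SE, edgeR adjusted p = 0.197).

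Complex II, succinate dehydrogenase, is also an enzyme of the tricarboxylic acid cycle. Of its 4 subunits, 2 were called lower and 0 higher. Over all genes tested 12.4% were called lower, and 19.9% at 16 CPM or more. Sdhb, the iron-sulfur subunit, had 97.76, 154.5 and 141.9 CPM in shUHRF1 and 208, 209.2 and 202.5 CPM in shControl. The shUHRF1 libraries were all lower but spread more widely, with the library numbered 1 lowest. Sdhb fell by 0.65 on the log2 scale (SE 0.17, edgeR adjusted p = 0.0274). Sdhd, a membrane anchor, had 101.8, 93.27 and 110.5 CPM in shUHRF1 and 130.1, 140.9 and 142.4 CPM in shControl. It fell by 0.44 (log2, SE 0.11, edgeR adjusted p = 0.0245) with no overlap. Sdhc, the other anchor, had a log2 fold change of -0.16 (edgeR adjusted p = 0.261). Sdha, the flavoprotein that oxidizes succinate, lay on the other side, at 347.8, 294.8 and 358.2 CPM in shUHRF1 and 263, 208.9 and 295.1 CPM in shControl. It was higher in shUHRF1 within each number, with a log2 fold change of 0.38 ± 0.15 (SE) that did not pass without the block (edgeR adjusted p = 0.105) and did with it (edgeR adjusted p = 0.0329). Sdhb lost its call without shUHRF1 replicate 3 or any of the shControl replicates 1, 2 and 3 (adjusted p = 0.0647, 0.0785, 0.0626 and 0.0759), and Sdhd without shControl replicate 1, 2 or 3 (adjusted p = 0.0527, 0.0579 and 0.0903). With upper-quartile factors neither passed (adjusted p = 0.0549 for Sdhb and 0.0751 for Sdhd).

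Complex III, the cytochrome bc1 complex, had 9 tested nuclear subunits. Of these 0 were called higher and 2 lower, with a median log2 fold change of -0.17. Among all genes tested 12.4% were called lower, and 19.9% at 16 CPM or more. Uqcrfs1, the Rieske iron-sulfur protein that takes electrons from coenzyme Q, had 95.92, 98.63 and 108.2 CPM in shUHRF1 and 151.1, 140.9 and 152.2 CPM in shControl. Uqcr10, a small accessory subunit, had 59.81, 63.59 and 74.64 CPM in shUHRF1 and 110.4, 109.1 and 128.3 CPM in shControl. In both genes every shUHRF1 library was below every shControl library. Uqcrfs1 fell by 0.55 (SE 0.10, edgeR adjusted p = 0.00826) and Uqcr10 by 0.81 (SE 0.13, edgeR adjusted p = 0.00448), both log2, and both calls were kept with each library left out in turn. The other 7 subunits ranged from -0.25 to 0.37 and were not called.

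Complex IV, cytochrome c oxidase, had 14 tested nuclear subunits of 18. Of these 1 was called higher, where 11.6% of all genes were called higher, and 0 lower. This was Cox7a1, which encodes the form of subunit VIIa typical of heart and skeletal muscle. It had 9.475, 8.361 and 10.17 CPM in shUHRF1 and 1.684, 1.877 and 1.865 CPM in shControl. The libraries of a group lay close together, and the level in shUHRF1 was 5.15 times that in shControl (log2 fold change 2.36 ± 0.20 (SE), edgeR adjusted p = 0.000628). In shUHRF1 the summed fibroblast markers were 14.5 times as high as in shControl, and the part of other cell types in the level of Cox7a1 was not tested. Its widely expressed counterpart Cox7a2 was at 138.9 ± 8.797 CPM in shUHRF1 and 124.5 ± 7.28 CPM in shControl (SD, n = 3 each) and was not called (log2 fold change 0.16 ± 0.11 (SE), edgeR adjusted p = 0.319). Per kilobase of exon, Cox7a1 was at 17.45 CPM in shUHRF1 and 3.381 CPM in shControl, and Cox7a2 at 147.2 CPM in shUHRF1 and 131.9 CPM in shControl, so Cox7a2 remained the more abundant form. Cox7a2l, a factor for supercomplexes of complexes III and IV, was at 54.79 ± 6.153 CPM in shUHRF1 and 56.14 ± 1.631 CPM in shControl (SD, n = 3 each), and 17.69% of its 50-base words also occur in a pseudogene.

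In the other groups of tissue forms, the widely expressed form was the more abundant in both conditions. Per kilobase, Cox4i1 was at 230.4 CPM in shUHRF1 and 226 CPM in shControl, while Cox4i2, the form known from lung, was at 1.638 CPM in shUHRF1 and 1.19 CPM in shControl. Cox6a1 was at 543.7 CPM per kilobase in shUHRF1 and 437.8 in shControl, and the muscle form Cox6a2 at 0.1153 in shUHRF1 and 0.4853 in shControl. Cox6b1 was at 447.6 CPM per kilobase in shUHRF1 and 381.1 in shControl, and the testis form Cox6b2 at 3.575 in shUHRF1 and 2.391 in shControl. Cox8a was at 470.3 CPM per kilobase in shUHRF1 and 443.2 in shControl, whereas Cox8c was listed at 0 and Cox8b had 1 read in 1 shControl library. Ndufa4, a complex IV subunit despite its name, was at 142.2 CPM per kilobase in shUHRF1 and 163.3 in shControl, and Ndufa4l2 at 0.5686 in shUHRF1 and 0.3887 in shControl. None of these 11 genes was called, and Cox6a2, Cox8b, Cox8c and Ndufa4l2 had too few reads to be tested.

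Complex V, ATP synthase, had 16 tested nuclear subunits, with 1 called higher and 1 lower, and a median log2 fold change of 0.08. Among all genes tested 11.6% were called higher and 12.4% lower. Atp5b, the catalytic beta subunit, had 2911, 2719 and 2751 CPM in shUHRF1 and 2154, 2105 and 2119 CPM in shControl. The groups were well apart relative to their spread, and Atp5b rose by 0.39 on the log2 scale (SE 0.11, edgeR adjusted p = 0.0323). Its call was lost without shUHRF1 replicate 2 or 3 or shControl replicate 1, 2 or 3 (adjusted p = 0.0555, 0.0979, 0.118, 0.0914 and 0.122), while the log2 fold change stayed between 0.37 and 0.39 in these 5 fits. It was also lost with no low-count filter (adjusted p = 0.112), with the GC and length offset (adjusted p = 0.0568) and in the libraries numbered 1 and 3 (adjusted p = 0.0968). Atp5d, the delta subunit of the central stalk, moved the other way, with 154.1, 167.3 and 172.9 CPM in shUHRF1 and 301.4, 257.5 and 351.1 CPM in shControl. It fell by 0.88 (log2, SE 0.14, edgeR adjusted p = 0.00419). Atp5a1, the alpha subunit that alternates with beta in the catalytic ring, was at 1915 ± 164.1 CPM in shUHRF1 and 1800 ± 102.7 CPM in shControl (SD, n = 3 each, log2 fold change 0.09 ± 0.12 (SE)). The 3 genes for the c subunit of the rotating ring were not called. Of these, Atp5g3 was the most abundant per kilobase, at 126.2 CPM in shUHRF1 and 119.8 CPM in shControl, ahead of Atp5g1 at 5.708 CPM in shUHRF1 and 5.111 CPM in shControl and Atp5g2 at 0.5708 CPM in shUHRF1 and 0.3469 CPM in shControl. Atp5s, a coupling factor related gene, had a log2 fold change of 0.21 ± 0.16 (SE, edgeR adjusted p = 0.362).

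Assembly factors and related genes held the largest fall among the 104 tested genes. Cox14 (ENSMUSG00000023020.2, chromosome 15), which in human cells is needed for making and assembling the catalytic subunit of complex IV, had 2.649, 3.238 and 2.809 CPM in shUHRF1 and 26.25, 17.41 and 26.35 CPM in shControl. The lowest shControl library was more than 5 times the highest shUHRF1 library. The log2 fold change was -3.01 ± 0.22 (SE, edgeR adjusted p = 0.0004), and -3.20 to -2.92 with a library left out. Cox18, which in human cells helps to insert another core subunit of complex IV into the inner membrane, had 15.45, 14.43 and 16.32 CPM in shUHRF1 and 23.46, 20.59 and 23.53 CPM in shControl. It fell by 0.55 (log2, SE 0.13, edgeR adjusted p = 0.0215), a call lost without shControl replicate 1 (adjusted p = 0.0715) or 3 (adjusted p = 0.087). Of the 18 tested genes in this class, 15 had a negative log2 fold change, with a median of -0.22, and 0 were called higher and 2 lower. Over all genes tested, 7566 of 15573 had a negative log2 fold change, with a median of 0.02, and 12.4% were called lower. At 16 CPM or more, 4634 of 7964 were negative, with a median of -0.08, and 19.9% were called lower. Ndufaf5, the most abundant complex I assembly factor per kilobase, had a log2 fold change of -0.31 ± 0.12 (SE, edgeR adjusted p = 0.1), and passed with an offset for GC content and length (edgeR adjusted p = 0.0343).

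**Figure D4:**
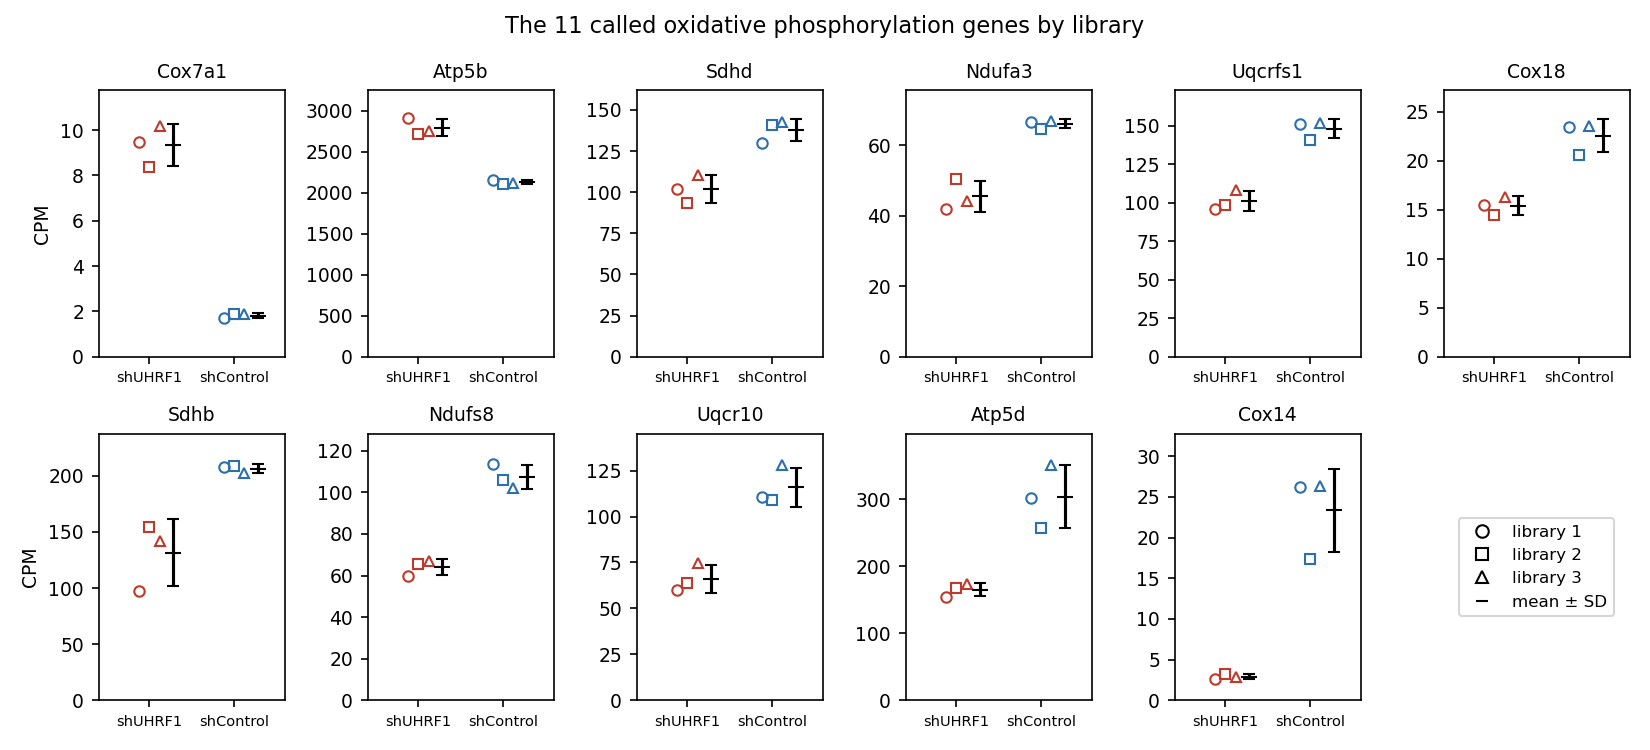
CPM by library of the 11 called genes, in the order of their log2 fold change from Cox7a1 to Cox14, with shUHRF1 left of shControl and the mean ± SD of 3 libraries beside the points. The groups overlap in none of the 11 genes, which were picked by the test of that difference. Over all 104 tested members 33.7% had no overlap, against 44% of all tested genes.

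Levels of nuclear subunits spread widely, from 592 CPM per kilobase (Atp5a1, mean of all 6 libraries) down to 0. Several subunits that every complex contains were low, among them Atp5l at 0.2268 and Cox7c at 3.544 CPM per kilobase. Of the 83 nuclear subunits, 11 share at least 10% of their 50-base words with other annotated genes, mostly pseudogenes, and these had a median of 15.6 CPM per kilobase. The median was 62.3 in the 21 subunits sharing less than 10% and 74.5 in the 51 sharing none, and length differs between these genes too. Levels of Ndufb4, Ndufs3, Ndufs5, Cox7c, Cox5b, Atp5h, Uqcrb, Ndufa12, Ndufab1, Atp5g1 and Atp5g2 are therefore uncertain as totals for the gene. None of these 11 was called. Atp5l falls under the 10% limit, with 7.49% of the words of its 6310-base transcript found in 640 other genes. Its level may be uncertain too. Of the called genes only Atp5b shared any words, at 0.86%.

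Promoters are shown because nuclear respiratory genes are known targets of the factors NRF1, GABPA (also called NRF-2) and YY1, and because UHRF1 acts in maintaining methylation of CG dinucleotides. In RefSeq promoters (GRCm38.p6, 250 bases before to 50 after the start), matched by gene identifier or symbol for 81 nuclear members, GCATGCGC for NRF1 was found in 14.8% of the members and 2.71% of all 32851 promoters, counting both strands. CCGGAAG for GABPA was found in 27.2% of the members and 8.86% of all, and AAGATGGC for YY1 in 13.6% of the members and 2.75% of all. The last pair can share 3 bases, which occurred in 0 of the member promoters. All promoters were not restricted to genes tested here or to a like CG content. Their median was 7 CG dinucleotides against 20 in the members, and the NRF1 and GABPA words contain CG. Whether the words are more frequent than in promoters of like CG content was therefore not tested. Among the 8 matched genes called lower, 4 held the GABPA word, against 17 of 68 members not called, and both genes called higher held none of the 3 words. Those 4 were Cox14, Sdhb, Ndufs8 and Sdhd, while Ndufa3, Uqcrfs1, Uqcr10 and Atp5d did not hold it. Whether these shares differ was not tested, and the motif promoters printed next all come from genes with the word. Motif words are in capitals in the promoters of Cox14 (plus strand, chr15:99725368-99725667), Sdhb (plus strand, chr4:140961021-140961320) and Ndufs8 (minus strand, chr19:3912725-3913024), where the word CTTCCGG is the GABPA word read on the other strand.
Cox14: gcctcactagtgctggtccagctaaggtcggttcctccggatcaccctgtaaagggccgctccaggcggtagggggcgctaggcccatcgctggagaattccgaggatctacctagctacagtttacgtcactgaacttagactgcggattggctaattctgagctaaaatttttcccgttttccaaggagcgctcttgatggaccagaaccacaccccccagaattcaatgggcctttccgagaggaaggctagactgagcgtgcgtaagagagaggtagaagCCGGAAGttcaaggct
Sdhb: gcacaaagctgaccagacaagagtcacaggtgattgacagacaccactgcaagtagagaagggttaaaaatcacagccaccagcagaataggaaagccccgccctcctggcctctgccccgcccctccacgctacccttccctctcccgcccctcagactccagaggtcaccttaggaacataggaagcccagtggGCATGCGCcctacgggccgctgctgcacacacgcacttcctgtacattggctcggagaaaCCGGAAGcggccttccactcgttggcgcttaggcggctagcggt
Ndufs8: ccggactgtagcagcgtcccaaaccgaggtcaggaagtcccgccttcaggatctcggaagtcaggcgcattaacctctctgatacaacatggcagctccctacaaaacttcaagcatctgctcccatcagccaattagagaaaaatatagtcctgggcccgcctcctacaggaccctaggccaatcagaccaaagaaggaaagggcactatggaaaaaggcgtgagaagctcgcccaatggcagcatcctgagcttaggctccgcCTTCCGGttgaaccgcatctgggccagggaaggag
Both forms of subunit VIIa differed in CG content. CG dinucleotides are in capitals in the promoters of Cox7a1 (plus strand, chr7:30183921-30184220), which had 7, and Cox7a2 (minus strand, chr9:79759804-79760103), which had 20, the median of the 81 members. All promoters in the table had a median of 7.
Cox7a1: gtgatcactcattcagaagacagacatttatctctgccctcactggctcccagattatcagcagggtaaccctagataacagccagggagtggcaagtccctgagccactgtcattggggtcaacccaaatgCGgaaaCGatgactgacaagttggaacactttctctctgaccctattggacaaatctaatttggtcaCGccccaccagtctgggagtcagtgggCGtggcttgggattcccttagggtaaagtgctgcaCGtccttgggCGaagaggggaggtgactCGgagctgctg
Cox7a2: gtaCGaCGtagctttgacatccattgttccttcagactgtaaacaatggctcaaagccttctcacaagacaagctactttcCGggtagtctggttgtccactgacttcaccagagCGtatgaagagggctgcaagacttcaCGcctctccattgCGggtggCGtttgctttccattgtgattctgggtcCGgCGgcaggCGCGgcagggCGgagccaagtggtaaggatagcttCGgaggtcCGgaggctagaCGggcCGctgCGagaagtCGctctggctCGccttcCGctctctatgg

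Genes that serve the pathway but fall outside its name patterns were taken from lists. Of 8 tested genes for electron carriers and dehydrogenases that feed coenzyme Q, 2 were called higher and 0 lower, and cytochrome c (Cycs) was at 11.51 ± 1.658 CPM in shUHRF1 and 12.78 ± 0.4711 CPM in shControl (SD, n = 3 each). Of 13 genes for coenzyme Q synthesis, 1 was called higher and 2 lower. Among 38 further assembly factors 2 were called higher and 6 lower. These included the complex III factor Uqcc1 at 32.09 ± 3.90 CPM in shUHRF1 and 49.97 ± 1.495 CPM in shControl, and Higd2a at 47.87 ± 1.63 CPM in shUHRF1 and 72.54 ± 7.789 CPM in shControl (SD, n = 3 each). Of 77 mitochondrial ribosomal proteins, 13 were called lower and 1 higher, with a median log2 fold change of -0.22. Mrpl28 fell by 0.93 (SE 0.12), Mrps25 by 0.91 (SE 0.12) and Mrpl38 by 0.87 (SE 0.14), all log2, with edgeR adjusted p-values of 0.00217, 0.00226 and 0.00488. Of 35 genes for maintaining and expressing mitochondrial DNA, 1 was called higher and 2 lower. Over all genes 11.6% were called higher and 12.4% lower, and at 16 CPM or more, where most mitochondrial ribosomal proteins lie, 9.29% higher and 19.9% lower. Without shControl replicate 3 the counts called were 2 of the further assembly factors, 5 of the mitochondrial ribosomal proteins and 1 of the genes for mitochondrial DNA. Without shControl replicate 1 they were 2, 7 and 2, and without shUHRF1 replicate 3 they were 4, 6 and 2.

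Among 15 regulators of mitochondrial gene expression, 6 were called higher and 1 lower, where 11.6% of all genes were called higher and 12.4% lower. The count called was 3 without shControl replicate 1 or 3, where 12.2% and 10.9% of all genes were called, against 24% in the full fit. Gabpb2, a partner of GABPA, was at 9.866 ± 0.7525 CPM in shUHRF1 and 5.028 ± 0.3698 CPM in shControl (SD, n = 3 each), a log2 fold change of 0.97 ± 0.17 (SE, edgeR adjusted p = 0.00686). GABPA itself (Gabpa), at 24.62 ± 0.638 CPM in shUHRF1 and 27.43 ± 4.031 CPM in shControl, and Nrf1, at 19.37 ± 1.393 CPM in shUHRF1 and 20.88 ± 0.6862 CPM in shControl, were not called (SD, n = 3 each). Of 28 genes for protein import 1 was called higher and 3 lower. The outer membrane receptor Tomm70a was at 187.1 ± 6.93 CPM in shUHRF1 and 411.6 ± 19.53 CPM in shControl (SD, n = 3 each, log2 fold change -1.14 ± 0.10 (SE), edgeR adjusted p = 0.000725). Tomm34 was at 19.83 ± 7.745 CPM in shUHRF1 and 63.56 ± 4.638 CPM in shControl (SD, n = 3 each). Of 21 genes of the tricarboxylic acid cycle and pyruvate entry 0 were called higher and 3 lower, led by the malate dehydrogenase Mdh2 at 108.4 ± 12.42 CPM in shUHRF1 and 208.1 ± 51.18 CPM in shControl (SD, n = 3 each). Of 22 glycolysis and lactate genes 1 was called higher and 2 lower, and with the block 1 higher and 5 lower. Of 9 genes for adenylate and phosphate transport 0 were called higher and 2 lower, and with the block 2 and 2. With the block 15.3% of all genes were called higher and 15.7% lower.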

How the data were processed

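RNA was sequenced from 6 libraries, 3 of shUHRF1 and 3 of shControl, grouped by their titles. The deposited values are raw read counts per gene, 1 table per library. Per the submitters' processing notes, FastQC, STAR, HTSeq, DESeq2 and the mm10 build were used; versions, annotation release and strandedness of counting were not given in the sources used. Where genes on opposite strands overlap, their reads may thus be mixed and cannot be told apart. Such overlap covers 3.53% of the exonic bases of Atp5d, 0.39% of Ndufa3 and 0% of the other called members, while 15 of 103 nuclear members overlap another gene over at least 10%. Lines that name no gene were kept out of library sizes; 8.43% to 17.18% of the entries were reads outside genes. Total counts limit precision most for genes under a few CPM.

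Symbols came from GENCODE M21 (GRCm38), which matched 47224 of 47643 identifiers. It lists 117 genes under the name patterns, of which 1 is not analysed here. Counts were filtered with filterByExpr, scaled with TMM factors and tested with edgeR 4.0.16 (R 4.3.3), by a two-sided quasi-likelihood F test without a block. Benjamini-Hochberg adjustment ran over all 15573 genes tested, and an adjusted p below 0.05 was called. Standard errors were derived from the F statistic. The fit was checked on simulated data. CPM used TMM-scaled library sizes. Sequence sharing was measured as 50-base words of a transcript found in transcripts of other, not overlapping genes, and copies were aligned with Biopython 1.88.

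Same-numbered libraries deviated alike from their group means (r = 0.326, 0.363 and 0.44, other pairs -0.266 to -0.038), so the numbers may pair the libraries. Deviations from a mean cancel out within a group, so the negative values of other pairs follow in part from the positive ones. The reported fit ignores a pairing, and the replicate block is given as an alternative. The labels are silent on what a number stands for, and a pairing rests on these correlations. Alternatives were RLE and upper-quartile factors, 2 other low-count filters, DESeq2 1.42.0, limma-voom (limma 3.58.1), the replicate block, removal of mitochondrial genes, a GC and length offset (mgcv 1.9.3), and each library left out. A fit on the libraries numbered 1 and 3, chosen since the pair numbered 2 had the highest shares of reads outside genes, the block with the offset, and sums without Atp5b or Cox14 were added after seeing the data.

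The members and lists were chosen with earlier results of these data known. Genes named were all mitochondrial ones, the most abundant of each role per kilobase, up to 4 called per role, the tissue forms, up to 3 of each list by smallest p, and Uhrf1. Sdha, Sdhc, Ndufa8, Ndufa11, Atp5l, Cox7c, Cycs, Gabpa, Nrf1 and the genes with shared sequence fall outside this rule and were named after their values were seen. A result that the rule would name is not reported here, though counts include it.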

Additional observations from a re-analysis of the deposited data

How the results depend on the processing

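All 11 called genes kept their direction under every alternative run, and the 6 genes Cox14, Cox7a1, Atp5d, Ndufs8, Uqcr10 and Uqcrfs1 kept their call in each. The number of members called higher, 2 in the reported fit, was 9 with upper-quartile factors, 1 without a low-count filter, and 5 with at least 2 CPM in at least 3 libraries. It was 6 with the replicate block, 5 with the block and the GC and length offset, and 1 in the libraries numbered 1 and 3. In the same order, the shares of all genes called higher were 11.6% in the reported fit, then 16.1%, 6.75%, 13.3%, 15.3%, 13.5% and 8.73%. Complex I subunits called went to 5 with the block, alone or with the offset. Complex II had 1 with upper-quartile factors, which was Sdha, called higher, while Sdhb and Sdhd lost their calls. In the libraries numbered 1 and 3 complex II had 1, which was Sdhb, called lower. Complex III had 4 with upper-quartile factors and 4 with the 2 CPM filter, where Uqcrc2 and Uqcrh were gained. Complex IV had 3 with upper-quartile factors and 2 with the offset, with or without the block. Complex V had 1 without a filter, with the offset, or in the libraries numbered 1 and 3. Assembly and related genes had 4 with the block and offset and 1 in the libraries numbered 1 and 3. Mitochondrially encoded subunits had 2 with the block. Among the lists, the block gave 4 called for adenylate and phosphate transport, 6 for glycolysis and 5 for mitochondrial DNA expression; it changed the call of no other result by over 1.5 times. The mean log2 difference of the nuclear sum was 0.08, and 0.21 with upper-quartile factors. Cox7a2l turned from -0.03 to 0.09 with upper-quartile factors, 0.01 with the 2 CPM filter and 0.04 in the libraries numbered 1 and 3, and mt-Nd6 to -0.15 with the offset and -0.16 with the offset and block. With these, mt-Nd4 was at -0.0038. Over these settings 13.9% to 33.4% of all genes tested were called, and 10.9% to 24.2% with a library left out. The cause of these shifts was not tested.

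With each library left out in turn, members called were 1 to 2 higher and 5 to 9 lower. By class, the counts were 1 to 3 for complex I, 0 to 2 for II, 2 to 3 for III, 1 for IV, 1 to 2 for V and 1 to 2 for assembly and related genes. By list, they were 0 to 3 for transport, 2 to 6 for other assembly factors, 1 to 3 for coenzyme Q synthesis, 0 to 2 for electron carriers, 1 to 7 for glycolysis, 2 to 3 for import, 5 to 13 for mitochondrial ribosomal proteins, 1 to 3 for mitochondrial DNA expression, 3 to 7 for regulators and 1 to 3 for the tricarboxylic acid cycle. Cox7a2l ranged from -0.09 to 0.03 and mt-Nd6 from -0.01 to 0.34. Depth limits statements on Uhrf1 and on the tissue forms listed with under 10 reads.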
